A study of Mus musculus with 5 samples.

Results

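The 9 genes described here encode subunits of the Polycomb repressive complexes that are known for silencing Hox genes. They are Ezh2, Ezh1, Eed, Suz12 and Jarid2 of the complex called PRC2, and Rnf2, Bmi1, Cbx2 and Cbx8 of the complex called PRC1. They were taken by symbol from a list of names, with no threshold on their values, but with earlier results of these data known. All 9 were found among the 23284 gene symbols counted in mouse forelimb RNA.

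Polycomb complexes keep developmental genes silent by marking their chromatin. PRC2 methylates histone H3 at lysine 27, through EZH2 or EZH1, and needs EED and SUZ12 to do so. PRC1 reads that mark through its CBX subunits and ubiquitinates histone H2A through RING1 or RNF2 paired with a PCGF protein such as BMI1. In the limb bud both complexes are known to hold Hox genes silent outside the domains where patterning signals switch them on.

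There were 5 libraries of total RNA. The E11.5 material was distal forelimb, taken by micro-dissection on a mixed C57BL/6 and CD1 background. It gave 2 wild-type libraries and 2 libraries of the Hoxa13-/-;Hoxd13-/- double mutant (called mutant here). The Hoxa13 allele carries a neomycin cassette in the coding region and the Hoxd13 allele a lacZ reporter in the first exon, and RNA came from pools of dissected samples (given as N = 4 in the labels). The E10.5 group was 1 library of forelimb bud from the CD1 strain, so embryonic day, dissected part and strain label change together and their shares in any difference from E11.5 cannot be told apart. The labels name separate pools as replicates, and p-values measure the spread between these pools.

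Counts in genes totalled 45115494 to 84172202 per library, and the 9 genes had 678 to 19507 reads each in every library. Counting error and the spread between pools were not separated for single members. Levels are given as CPM, reads of a gene scaled to a common library size, with library sizes corrected by TMM so that most genes are comparable between libraries. Of the targeted genes, Hoxd13 had 237 and 243 CPM in wild type and 45.9 and 38.2 in the mutant. Hoxa13 had 48.9 and 46.6 in wild type and 46.2 and 38.1 in the mutant, and its allele is an insertion, so reads over the rest of the gene do not check the label. The forelimb gene Tbx5 had 76.8 to 97.0 CPM over the 5 libraries, while the hindlimb gene Pitx1 had at most 0.384 and the hindlimb gene Tbx4 between 6.66 and 10.04.

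Ezh2, the main H3K27 methyltransferase of dividing cells, was the member that differed most with stage. It measured 266 CPM in the E10.5 bud, 111 and 115 in the mutant, and 125 and 115 in wild type, where each pair here and below gives replicate 1 first. The E10.5 library stood far above the other 4, and the mutant and wild-type libraries overlapped (log2 fold change, mutant over wild type, -0.08, SE 0.09, edgeR adjusted p = 0.696). The E10.5 level was 2.12-fold and 2.31-fold that of the 2 wild-type libraries, and 2.39-fold and 2.31-fold that of the 2 mutant libraries. The stage rule called a gene higher or lower when its E10.5 level differed from that of both wild-type libraries by 2-fold or more. With 1 library at E10.5 this rule has no p-value. Ezh2 was the only member called, 1 of 9, beside 16.7% of 16738 genes called in either direction, 3.86% higher and 12.9% lower. Without TMM, on library totals alone, the log2 difference of Ezh2 was 0.91 in place of 1.15 and no member was called. That change of scaling moved the median difference of all genes from -0.02 to -0.25. In bulk tissue, fewer cells of a type and less RNA per cell cannot be told apart.

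Ezh1, the paralog of Ezh2 with weaker methyltransferase activity, went the other way. It had 13.4 CPM at E10.5, 20.1 and 19.2 in the mutant, and 19.2 and 18.3 in wild type. The E10.5 library was the lowest of the 5, at 0.700-fold and 0.734-fold of the wild-type libraries. Mutant and wild type overlapped (log2 fold change 0.07, SE 0.11, edgeR adjusted p = 0.798). The ratio of Ezh2 to Ezh1 reads does not depend on how libraries are scaled. It was 19.8 at E10.5, 5.54 and 5.99 in the mutant, and 6.52 and 6.28 in wild type. The E10.5 ratio was thus 3.03 to 3.15 times that of the wild-type libraries. The mutant ratios lay a little below the wild-type ones (log2 difference -0.15). An exact two-sided permutation test gave p = 0.333, the smallest it can give with 2 libraries a group.

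The promoter sequences of Ezh2 and Suz12 are shown because each holds a match to a word described below, and that of Ezh1 as the paralog of Ezh2 without one. They come from the RefSeq table for GRCm38.p6, which held a promoter for 8 of the 9 members. The counts were made on mm9, so these coordinates are not those of the count tables. Capitals mark an 8-base word of the kind bound by E2F cell cycle factors. The words searched, on both strands, were TTTGGCGC, TTTCGCGC and TTTCCCGC, and they were chosen after the sequences had been seen. For Ezh2 only 30 bases around the match are shown (chr6:47595009-47595038, minus strand), since longer annotated transcripts start further upstream. For Suz12 (chr11:79992856-79993105, plus strand) and Ezh1 (chr11:101226464-101226713, minus strand) the 250 bases before the start are shown.
Ezh2: gggttgctgcgTTTGGCGCtcggtccggtc
Suz12: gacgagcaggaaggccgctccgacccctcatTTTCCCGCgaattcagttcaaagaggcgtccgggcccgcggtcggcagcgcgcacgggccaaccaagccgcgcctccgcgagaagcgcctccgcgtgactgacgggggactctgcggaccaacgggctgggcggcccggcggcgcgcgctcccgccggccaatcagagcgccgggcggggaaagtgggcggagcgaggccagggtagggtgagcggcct
Ezh1: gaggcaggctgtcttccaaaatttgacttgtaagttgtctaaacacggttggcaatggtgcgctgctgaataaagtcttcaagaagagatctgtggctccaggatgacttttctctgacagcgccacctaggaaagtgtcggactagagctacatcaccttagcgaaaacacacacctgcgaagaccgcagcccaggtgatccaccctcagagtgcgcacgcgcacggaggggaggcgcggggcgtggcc
In the table's 300-base windows, from 250 bases before to 50 after each start, 606 of 32851 promoters (1.84%) held at least 1 of the 3 words. Of the 9 promoters of the 8 members, with 2 for Jarid2, those of Ezh2 and Suz12 did. The words were chosen after the sequences had been seen, so the share among members cannot be compared with that of all promoters. Jarid2 and Eed held none. Whether a word goes with the difference by stage was not tested. The Ezh2 match, TTTGGCGC, begins at base 4 counted from the start as base 1. The Suz12 match, TTTCCCGC, begins 219 bases before the start. A match is a description of letters and shows no binding.

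**Figure D1:**
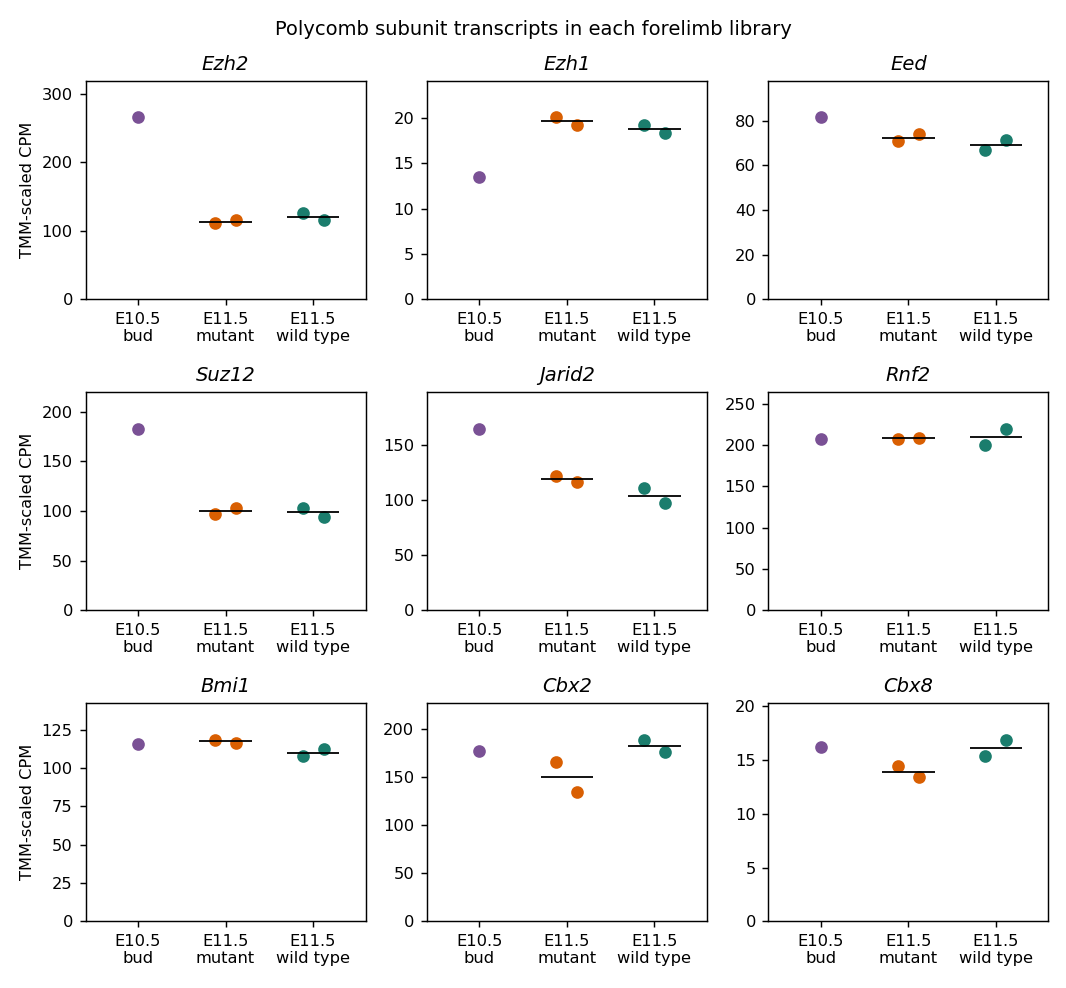
TMM-scaled CPM (vertical axis, from 0) of the 9 subunits in each library of the 3 groups (horizontal axis). Points are libraries and bars are means of 2 libraries. Ezh2 stands at 266 CPM at E10.5 and at 111 to 125 in the E11.5 libraries, while Rnf2 lies between 200.5 and 220 in all 5.

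Suz12 and Eed, core subunits of PRC2, were also higher at E10.5, by less than Ezh2. Suz12, the scaffold that holds the complex together, had 183 CPM at E10.5, 97.2 and 103 in the mutant, and 103 and 94.4 in wild type. Its E10.5 level was 1.78-fold and 1.94-fold that of the wild-type libraries, just under the 2-fold rule. Eed, whose protein binds methylated H3K27 and stimulates the enzyme, had 81.6 CPM at E10.5, 71.1 and 74.1 in the mutant, and 66.8 and 71.7 in wild type. The Eed difference was small (1.22-fold and 1.14-fold), and on library totals alone its log2 difference was 0.0028. The mutant and wild-type libraries overlapped for both genes, with log2 fold changes of 0.03 (SE 0.09) for Suz12 and 0.08 (SE 0.09) for Eed and edgeR adjusted p-values of 0.921 and 0.737. Among these core subunits the stage difference thus ran from Ezh2 through Suz12 down to Eed. Ezh1, also in the core list, was lower at E10.5 (mean log2 difference -0.48). The other core genes of the list, the histone-binding Rbbp4 and Rbbp7, had mean log2 differences by stage of 0.55 and 0.11.

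Jarid2, an accessory subunit that helps recruit PRC2, was highest at E10.5. It had 165 CPM at E10.5, 122 and 116 in the mutant, and 111 and 97.0 in wild type. Both mutant libraries lay above both wild-type libraries. The log2 fold change, mutant over wild type, was 0.21 (SE 0.09), with an unadjusted p of 0.0407 and an adjusted p of 0.231 by the edgeR quasi-likelihood test. The adjusted p was 0.0352, and Jarid2 then rose (0.30), when wild-type replicate 1 was left out, and it lay between 0.162 and 0.729 under the other alternatives. Leaving out wild-type replicate 2 gave a smaller log2 fold change, 0.13. Other accessory genes of PRC2 ranged widely with stage. E130012A19Rik, the symbol used in the tables for Epop, a PRC2 partner in stem cells, had 29.0 CPM at E10.5 against 7.12 and 6.50 in wild type and 7.27 and 6.51 in the mutant. It was called higher (4.06-fold and 4.45-fold). Mtf2, which links PRC2 to CpG-rich DNA, had a mean log2 difference by stage of -0.07, and Aebp2, a zinc finger subunit, had 0.31.

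The catalytic pair of PRC1 was nearly level across all libraries. Rnf2, the main ubiquitin ligase for H2A, had 208 CPM at E10.5, 208 and 208 in the mutant, and 200.5 and 220 in wild type. Its log2 fold change in the mutant was -0.01 (95% interval of the fold 0.872 to 1.13). Bmi1, the RING partner also called PCGF4, had 116 CPM at E10.5, 119 and 116 in the mutant, and 108 and 112 in wild type. Both mutant libraries of Bmi1 lay above both wild-type libraries, by a log2 fold change of 0.10 (SE 0.08, edgeR adjusted p = 0.593). By stage Rnf2 and Bmi1 lay inside the range of the E11.5 libraries. On library totals their log2 differences by stage were -0.25 and -0.17, beside a median of -0.25 for all genes.

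The chromodomain subunits, which bind methylated H3K27, had the most negative fold changes of the 9 in the mutant, and neither passed the test. Cbx2 had 177 CPM at E10.5, 165 and 135 in the mutant, and 189 and 177 in wild type. Both mutant libraries lay below both wild-type libraries, and the mutant libraries also differed from each other by more than the wild-type ones did. The log2 fold change was -0.28 (SE 0.10), with an unadjusted p of 0.0193 and an adjusted p of 0.147 by edgeR. Leaving out mutant replicate 1 gave -0.43, and leaving out mutant replicate 2 gave -0.14. Cbx8 had 16.2 CPM at E10.5, 14.4 and 13.4 in the mutant, and 15.4 and 16.9 in wild type. Its log2 fold change was -0.21 (SE 0.12, edgeR adjusted p = 0.398), again with no overlap between the groups. It was -0.13 without wild-type replicate 2.

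In the mutant against wild type, 0 of the 9 members passed an adjusted p of 0.05, beside 7.16% of 16166 genes tested across the transcriptome (3.82% higher and 3.34% lower). By DESeq2 the count was also 0, beside 7.24%. At an unadjusted p below 0.05 there were 2 by edgeR (Jarid2 and Cbx2), beside 19.4% of all genes, and 1 by DESeq2 (Cbx2), beside 13.4%. Mutant and wild-type libraries did not overlap for 4 members, 2 higher and 2 lower, beside 49.5% of all genes. At 7.16% fewer than 1 call would fall among 9 genes, so the count of 0 does not set the members apart from other genes. The 95% intervals give what these libraries can bound. The lowest bound was 0.706-fold, for Cbx2, and the highest 1.33-fold, for Jarid2. For Ezh2 the interval ran from 0.831-fold to 1.08-fold and for Suz12 from 0.892-fold to 1.16-fold. A change of 2-fold lay outside the interval of every member.

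Over 50 genes of PRC2, canonical and variant PRC1 and the PR-DUB complex, which removes ubiquitin from H2A, 0 rose and 2 fell, which is 4% beside 7.16% of all genes. The median log2 fold change was -0.0091, beside -0.00082 over all genes tested. The genes that fell were Max and Bcor. Max, a partner of MGA in a variant PRC1, went from 31.6 and 28.1 CPM in wild type to 23.3 and 20.1 (log2 fold change -0.45, SE 0.11, edgeR adjusted p = 0.0340). Bcor, a scaffold of another variant PRC1, went from 85.0 ± 6.45 (SD, n = 2) to 65.2 ± 7.39 CPM (log2 fold change -0.37, SE 0.10, edgeR adjusted p = 0.0482). The log2 fold changes of Max and Bcor were smaller in size without mutant replicate 2 (-0.35 and -0.26) or wild-type replicate 1 (-0.37 and -0.30). They were larger in size without mutant replicate 1 (-0.56 and -0.49) or wild-type replicate 2 (-0.52 and -0.44). On library totals edgeR called 0 of the 50 (adjusted p 0.0667 for Max and 0.0879 for Bcor), and DESeq2 called the same 2 genes. For the complexes without a call, the genes of smallest adjusted p follow with their log2 fold changes in brackets. They were Rbbp7 (0.11) and Ezh2 (-0.08) in the PRC2 core, and Aebp2 (0.24) and Jarid2 (0.21) among PRC2 accessory genes. In canonical PRC1 they were Phc2 (0.36) and Cbx2 (-0.28), and in PR-DUB Asxl3 (0.27) and Asxl1 (0.21). The smallest edgeR adjusted p of these was 0.0662, for Phc2. Among 17 genes of the opposing side, the H3K27 demethylases and the trithorax group, 0 passed in edgeR or in DESeq2. In edgeR 2 had an unadjusted p below 0.05, namely Men1 (log2 fold change -0.28) and Ash1l (-0.20).

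Hox genes, the classical targets of these complexes, changed in the same libraries. In the HoxA cluster 5 of 11 tested genes rose and 0 fell, and in the HoxD cluster 6 of 8 rose and 1 fell, Hoxd13 itself. Hoxd4, an anterior gene of its cluster, had 51.9 and 47.1 CPM in the mutant, 45.8 at E10.5 and a wild-type mean of 12.1 ± 0.784 (SD, n = 2). Its mutant libraries lay near the E10.5 library, which was not so for every Hox gene. Hoxb4 had 8.12 CPM at E10.5, 1.03 and 0.811 in the mutant and 0.874 and 0.741 in wild type, and Hoxa13, given above, had 6.17 at E10.5. In the HoxB and HoxC clusters 2 of 14 tested genes rose and 0 fell. Whether the protein or the marks of the Polycomb complexes differed was not measured.

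**Figure D2:**
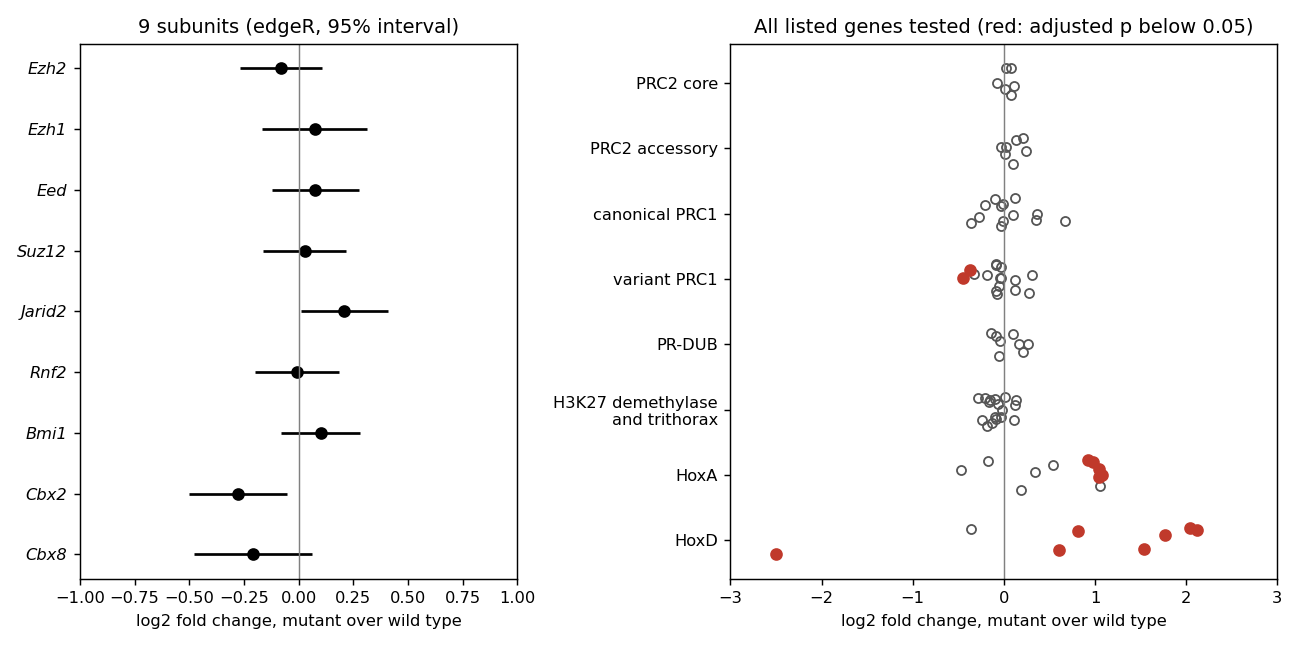
Left, log2 fold change of mutant over wild type for the 9 subunits with 95% intervals from the edgeR fit. Right, each listed gene that was tested, by complex, with genes of adjusted p below 0.05 in red. The Polycomb genes lie between -0.45 and 0.67, with 2 in red, while HoxD genes reach from -2.50 to 2.12.

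Compared per length, the 9 members differed in level by more than 10-fold. In wild type the order was Rnf2 with 54.2 ± 3.59 CPM per kb (SD, n = 2), Cbx2 with 48.0 ± 2.30, Ezh2 with 40.6 ± 2.48, Eed with 33.5 ± 1.68, Bmi1 with 28.0 ± 0.771, Suz12 with 22.5 ± 1.37, Jarid2 with 15.4 ± 1.43, Cbx8 with 4.51 ± 0.293 and Ezh1 with 3.09 ± 0.105. With the lengths used here, the ranges of neighbours in this order did not overlap over the 2 wild-type libraries. At E10.5 Ezh2 stood first with 89.8 CPM per kb, ahead of Rnf2 with 53.6 and Cbx2 with 46.5. Lengths are the union of protein-coding exons in GENCODE M21, another annotation than that of the counts. By the longest coding transcript Ezh1 has 4207 bases in place of 6081, and Cbx8 has 3580 either way. The order was not checked with that length.

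Within families of paralogs, levels per length give the share of each member. Ezh2 made up 97.6% of the Ezh family at E10.5 and 91.9% to 93.1% in the E11.5 libraries. Rnf2 made up 89.4% to 92.8% of the pair with Ring1 over the 5 libraries. Of the 4 Cbx genes compared, Cbx2 held 81.3% to 84.3%, with Cbx8 at 7.05% to 8.63% and Cbx7 below 1% in every library. The Pcgf family was spread more evenly, with Bmi1 at 33.6% at E10.5 and 36.7% to 40.7% at E11.5, next to Pcgf6 at 32.9% and at 25.8% to 28.2%. Among the Phc genes, whose proteins polymerise PRC1, Phc2 held 59.2% at E10.5 and 35.4% to 42.7% at E11.5. The ratio of Rnf2 to Ring1 reads was 16.1 at E10.5, 17.2 and 20.5 in the mutant, and 23.6 and 24.5 in wild type. Both mutant ratios lay below both wild-type ones (log2 difference -0.36, exact two-sided permutation p = 0.333, the smallest possible), and the E10.5 ratio was the lowest of the 5. That difference ranged from -0.48 (mutant replicate 2 left out) to -0.23 (mutant replicate 1 left out).

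**Figure D3:**
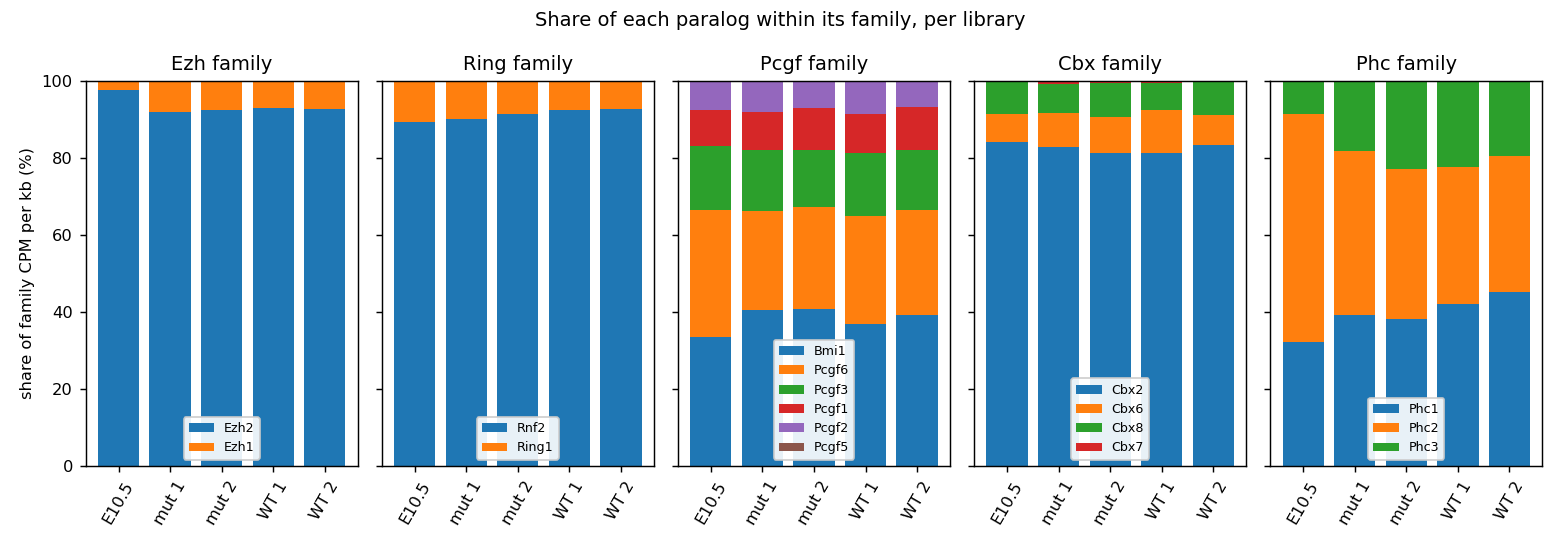
Share (%) of each paralog in the summed CPM per kb of its family (4 genes compared for Cbx), for 5 families in each library (mut, mutant; WT, wild type). Ezh2, Rnf2 and Cbx2 fill most of their bars in every library, and the Phc2 share is 59.2% at E10.5 and at most 42.7% at E11.5.

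By stage, of the 50 Polycomb genes 3 were called higher (E130012A19Rik, Phc2 and Ezh2) and 0 lower, beside 3.86% of all genes higher and 12.9% lower. The median log2 difference was 0.21, beside -0.02 for all genes, and 37 of 50 were above 0. The sign of that median depends on the scaling: on library totals it was -0.03, with 24 of 50 above 0 and 2 called higher, beside -0.25 for all genes. Phc2 had 93.6 CPM at E10.5 against 33.0 and 31.0 in wild type and 44.1 and 37.6 in the mutant. Between 1.88-fold and 2.11-fold from the wild-type libraries, on the edge of the rule, were Rybp and Yaf2, paralogs that define variant PRC1. With TMM, 4 of the 9 members lay above all 4 E11.5 libraries (Ezh2, Suz12, Jarid2 and Eed). Of the rest, 1 lay below (Ezh1) and 4 lay within, all of PRC1. On library totals the mean log2 differences from wild type were 0.0028 for Eed, -0.25 for Rnf2 and -0.17 for Bmi1. These positions can thus depend on the scaling. In the wider lists, 5 of 13 canonical and 10 of 16 variant PRC1 genes lay above all 4 libraries, also with TMM. Over all genes 73.1% lay outside the 4 libraries, 35.8% above and 37.3% below.

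**Figure D4:**
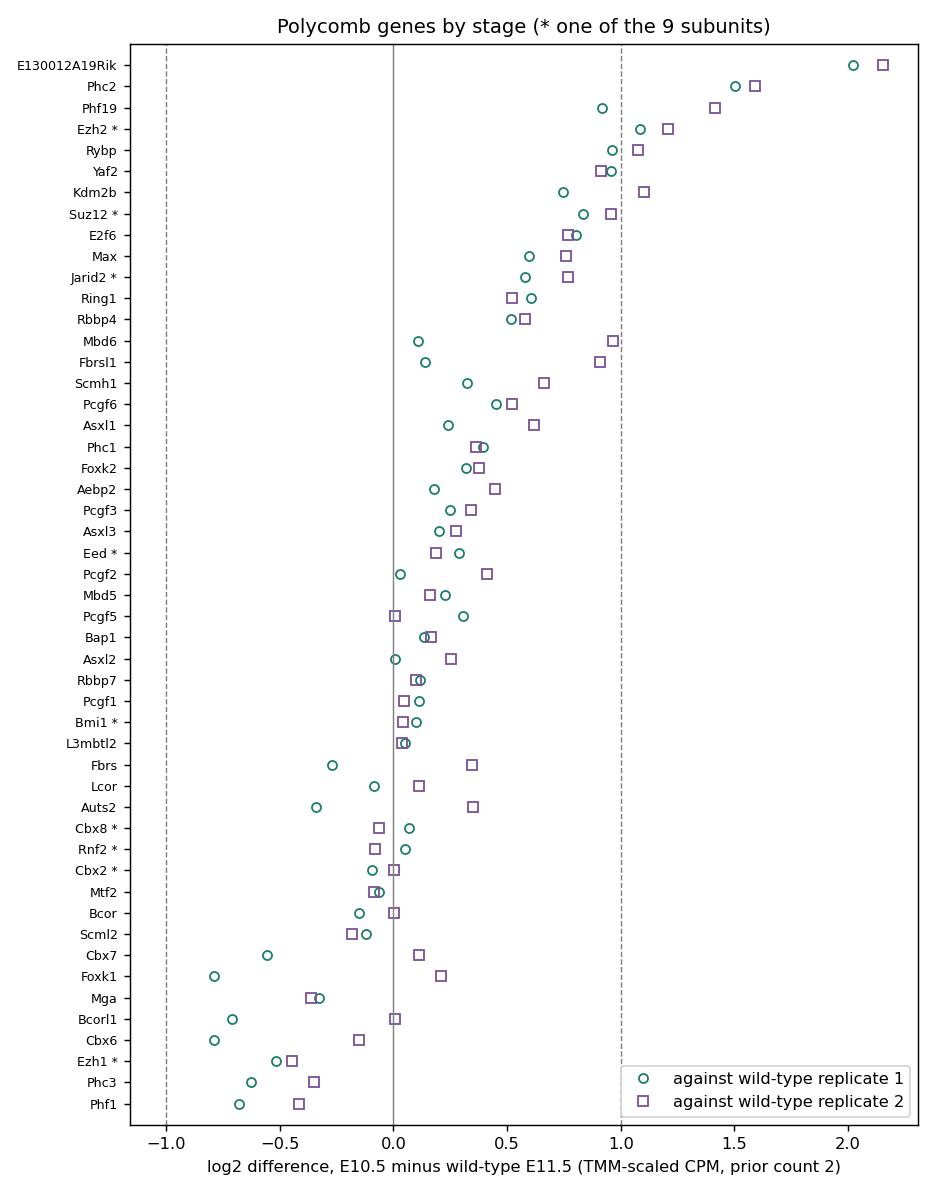
Log2 difference of the E10.5 library from each wild-type E11.5 library (horizontal axis) for the 50 Polycomb genes, ordered by their mean. Dashed lines mark a 2-fold difference, and stars mark the 9 subunits. Ezh2 lies past the line against both libraries (1.08 and 1.21), Suz12 just inside it (0.83 and 0.96) and Ezh1 on the lower side (-0.52 and -0.45).

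Markers of other cell types and of the cell cycle also differed with stage. Of 21 cell cycle genes 16 lay above all E11.5 libraries, with a summed level of 8506 CPM at E10.5 and 7028 to 7615 in wild type. Their median log2 difference was 0.24, and 18 of 21 were above 0. These values, and the 16 genes above all E11.5 libraries, are with TMM. The list was not compared on library totals, a scaling that shifted the median difference of all genes by -0.23. Single cell cycle genes ran from -0.56 (Ccne2) to 0.99 (Ccne1), with Mki67 at 0.71 and E2f1 at 0.64, beside 0.89 for Suz12. The part of the cell cycle genes in the Polycomb differences was not tested. The 6 muscle markers summed to 33.9 CPM at E10.5 and 75.0 to 88.6 in wild type, and Myog, a gene of muscle differentiation, had 0.395 CPM against 22.4 and 28.6. Of these 6, 2 went the other way. Pax3 had 23.7 CPM at E10.5 against 3.26 and 3.42 in wild type, and Myf5 had 8.61 against 4.35 and 5.19. The 5 macrophage markers summed to 13.1 CPM at E10.5 and 35.9 to 44.8 in wild type. The 8 limb mesenchyme markers summed to 1774 CPM at E10.5 and 1756 to 1799 in wild type. Erythroid markers were higher at E10.5, with a sum of 3204 CPM against 2127 to 2160, and so were endothelial markers, with 233 against 149 to 163 and Cdh5 called higher (2.95-fold and 2.85-fold). Ectoderm and ridge markers summed to 235 CPM against 273 to 287, and single genes went both ways. Krt14 was called lower, at 10.6 CPM against 67.5 and 76.2, and Fgf8 was called higher (3.37-fold and 4.17-fold). Of the 7 ectoderm and ridge markers 4 had a mean log2 difference above 0, and the median was 0.092. Neuron and Schwann cell markers summed to 21.9 CPM at E10.5. In the mutant the cell cycle list had 0 called genes of 21 by edgeR and by DESeq2, 4 at an unadjusted p below 0.05 by edgeR, and a median of -0.10. Neuron and Schwann cell markers summed to 18.5 to 19.4 CPM in the mutant and 39.3 to 44.7 in wild type. Erythroid markers summed to 2675 to 2679 CPM in the mutant and 2127 to 2160 in wild type, with Hba-a1 at 0 in every library, and macrophage markers to 54.8 to 56.6 and 35.9 to 44.8. Of the 8 limb mesenchyme markers 1 rose and 4 fell in the mutant, and their sum was 1874 to 1903 CPM. Their part in the Polycomb values was not tested.

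Genes whose profile over the 5 libraries was closest to that of a member were found by the distance between mean-centred log2 levels, among genes with a mean of at least 10 CPM. For Ezh2 they were Ammecr1 (distance 0.079), Homer3 (0.080), Mrpl14 (0.080), Pitpnb (0.085) and Yy1 (0.099). Yy1 had 123 CPM at E10.5 and 49.9 to 56.5 in the E11.5 libraries. For Ezh1 they were Col11a1 (0.022), D17H6S53E (0.035), Golga1 (0.059), Atpaf2 (0.063) and Ccnl2 (0.064). For Cbx2 they were Ppap2b (0.055), Smarca4 (0.072), Polrmt (0.073), Zc3h18 (0.074) and Gprc5b (0.090). With 5 libraries such closeness is a description of these profiles alone.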

How the data were processed

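Total RNA was depleted of ribosomal RNA and made into strand-specific libraries sequenced from both ends, per the labels' protocols. The deposited values are read counts, whole numbers for each gene symbol that the authors obtained with HTSeq, per the submitters' processing notes. TopHat2 2.0.13, Cufflinks 2.1.1, SAMtools and mm9 are also named in the submitters' processing notes. The strand setting and annotation of the counting are not given in the sources used here, so genes overlapping a listed gene could share reads. The 5 closing lines of each table were left out (reads in no feature were 24.3% to 39.6%).

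The main test was edgeR 4.0.16 (R 4.3.3, quasi-likelihood, TMM, genotype as the only term) on the 4 E11.5 libraries, after filterByExpr with a minimum count of 10 and a minimum total of 15. Benjamini-Hochberg adjustment ran over every gene that passed the filter, as all 9 members did. DESeq2 1.42.0 was an alternative. Stage differences are on the log2 scale of TMM-corrected CPM, prior count 2, with no test, since E10.5 has 1 library. The members and lists were chosen with earlier results of these data known. All 9 members are named. Of the wider lists, genes that passed are named, or else the 2 of smallest adjusted p per complex. For stage, genes past 2-fold are named, and others named by stage (Rybp, Yaf2, Mtf2, Aebp2, Rbbp4, Rbbp7), with the Hox and marker genes shown, were chosen after their values were seen. One listed symbol (Setd1b) matched no row, and 1 gene, left out of the wider lists, is not reported here. Replicate libraries differed beyond sampling noise (chi-square per degree of freedom 12.4 and 29.5).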

Additional observations from a re-analysis of the deposited data

How the results depend on the processing

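The count of 0 members called in the mutant held under every alternative except the one without wild-type replicate 1, where Jarid2 was called (count 0 to 1 over fits leaving out a library). The wider Polycomb count of 2 was 0 on library totals, 1 with DESeq2 size factors or with all 5 libraries in the fit (Max), 5 without a filter on low counts, and 1 to 7 over fits leaving out a library, the most without wild-type replicate 1. Genes called over the transcriptome numbered 1157, 1762 without the filter, and 796 to 2018 over fits leaving out a library, the most without wild-type replicate 1. The wider count was 4 with the replicate block (Bcor, Kdm2b, Max and Phc2), where 0 members were called. Phc2 and Kdm2b, whose log2 fold changes in the main fit were positive (0.36 and 0.30), were also among the 5 called without the filter. The count of 0 that rose thus also depends on the setting. Same-numbered libraries did not deviate together (correlation -0.08 across genes), so the numbers were not taken as pairs. Fold changes near 0 changed sign: Rnf2 (-0.01) was 0.0071 on library totals and -0.084 to 0.073 when a library was left out, and Suz12 (0.03) was -0.023 to 0.080. The stage count of 1 member was 0 on library totals and 2 with a 1.5-fold rule (Ezh2 and Suz12). The log2 ratio of Bmi1 to Pcgf2, mutant minus wild type (0.13), was -0.093 to 0.35 when a library was left out, and that of Cbx2 to Cbx8 (-0.08) was -0.19 to 0.037. Their causes were not tested. With the longest coding transcript as length, chosen after the data were seen, Ezh2 made up 90.6% of its family in wild type in place of 92.9%. With 2 pools a group, the spread between pools limits precision. The members with the fewest reads, Cbx8 and Ezh1, had the largest SEs (0.12 and 0.11), and the part of depth was not tested.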

Other observations

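Among 26 developmental regulators often cited as Polycomb targets, 9 had enough reads to be tested and 3 had no read in any library. Of the 9, 2 rose and 0 fell in the mutant, 22.2% beside 7.16% of all genes tested. T, the mesoderm gene Brachyury, had 1.17 ± 0.118 CPM in wild type and 7.47 ± 0.154 in the mutant (SD, n = 2) and 0.640 at E10.5 (log2 fold change 2.67, SE 0.21, edgeR adjusted p = 1.06e-05). Gata6, a factor of endoderm and anterior limb mesenchyme, had 0.405 and 0.194 CPM in wild type, 1.19 and 1.31 in the mutant and 2.90 at E10.5 (2.09, SE 0.41, edgeR adjusted p = 0.00914). T was thus high in the mutant alone, and Gata6 was highest at E10.5. Cdkn2a, a cell cycle inhibitor under Polycomb control, had reads in 1 library only, a wild-type one (0.11 CPM).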
